A study of Rattus norvegicus with 6 samples.

Results

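The miR-99/100 and miR-125 families were followed while rat oligodendrocyte precursors in culture, which can mature into the cells that wrap brain axons in myelin, were switched to differentiation. The members were the probes of a rat miRNA array whose names begin with rno-miR-99a, rno-miR-99b, rno-miR-100, rno-miR-125a or rno-miR-125b, whatever the arm (rno stands for rat and is left out after this paragraph). This rule found 11 of 761 rat miRNA probes, 5 for the 5p arms (rno-miR-99a-5p, rno-miR-100-5p, rno-miR-99b-5p, rno-miR-125b-5p and rno-miR-125a-5p) and 6 for the 3p arms (rno-miR-99a-3p, rno-miR-100-3p, rno-miR-99b-3p, rno-miR-125b-1-3p, rno-miR-125b-2-3p and rno-miR-125a-3p). The rule uses names only and no measured value.

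A miRNA is cut from a hairpin precursor that holds a 5p and a 3p arm, and the loaded arm finds target messages mainly through its seed, bases 2 to 8. The miR-125 miRNAs are the mammalian relatives of lin-4, the first miRNA found in the worm Caenorhabditis elegans, and are known to repress LIN28, the protein that blocks the maturation of let-7. The miR-99/100 miRNAs are known as repressors of the growth kinase mTOR. In mammals the families lie together with a let-7 gene in 3 clusters, and miR-125b-5p is made from 2 of these. Of the members, miR-125a-3p has been described in rat precursors as a brake on oligodendrocyte maturation.

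The sequences are shown to set out which members share a seed and could share targets, and which probes tell the clusters apart. RefSeq (build GRCr8) held a mature sequence for 10 of the 11 members, all but miR-99a-5p. They are written 5′ to 3′ with the seed in capitals. miR-100-5p and miR-99b-5p share the seed ACCCGUA and differ at 4 of 22 positions (A1C, U11A, A16C and U21C, counted from the 5′ end of miR-100-5p, with its base first).
miR-100-5p: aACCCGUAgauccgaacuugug
miR-99b-5p: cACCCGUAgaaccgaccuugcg
miR-125b-5p and miR-125a-5p share the seed CCCUGAG and the first 13 bases. The only other miRNA in the table of 693 mature sequences with this seed was miR-351-5p.
miR-125b-5p: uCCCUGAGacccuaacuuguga
miR-125a-5p: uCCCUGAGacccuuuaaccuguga
miR-351-5p: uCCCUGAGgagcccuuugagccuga
Among the 3p arms, miR-99a-3p and miR-99b-3p share the seed AAGCUCG, while each of the other 4 has a seed that no other mature sequence in the table holds.
miR-99a-3p: cAAGCUCGuuucuaugggucug
miR-99b-3p: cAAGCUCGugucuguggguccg
miR-100-3p: cAAGCUUGugucuauaggu
miR-125a-3p: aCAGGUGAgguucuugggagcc
The 3p arms of the miR-125b precursors differ at 4 of 22 positions (G3A, G4A, U7C and G20C, from miR-125b-1-3p to miR-125b-2-3p). They are the probes by which these 2 precursors can be told apart, since both give the same 5p arm.
miR-125b-1-3p: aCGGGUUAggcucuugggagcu
miR-125b-2-3p: aCAAGUCAggcucuugggaccu

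All 3 clusters lie on the plus strand of GRCr8. The compact one holds Mir99b, Mirlet7e and Mir125a within 696 bases (chr1:67350064-67350759). Mir100, Mirlet7a-2 and Mir125b1 span 51828 bases (chr8:50798295-50850122). Mir99a, Mirlet7c1 and Mir125b2 span 45257 bases (chr11:29687392-29732648), a span that ends at the last base of mature miR-125b-2-3p because 2 hairpin entries were used for this cluster, where the others rest on 3 hairpins each. The probe sequences of the array were not used here, so cross-hybridization between members with near-identical sequences was not tested.

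The study compared 3 samples in the normal condition, titled DIV0, with 3 in the differentiated condition, titled DIV3. All were rat oligodendrocyte precursors cultured in Raff medium, and differentiation was started by a change of growth factors, per the labels. The strain, the age of the animals and whether the samples came from separate cultures are not given in the labels, so the p-values cover the variation among these 6 samples alone, and that variation may be technical. The titles were read as days 0 and 3 in vitro, so time in culture and growth condition cannot be told apart, and neither can the condition and the position on the slide, since each DIV0 array lay at position 1 and each DIV3 array at position 2.

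Each sample was measured on 1 Cy5 array. The median miRNA spot exceeded the blank spots by 5.87 intensity units on the DIV0 array of replicate 3 and by 25.5 to 44.7 units on the other arrays. The culture was checked with marker miRNAs. All 5 markers of differentiating oligodendrocytes (miR-138-5p, both arms of miR-338 and the miR-219a probes) rose in limma, and their summed deposited intensity went from 189 to 746 units in DIV0 to 2616 to 4020 in DIV3. Markers of other cells were also detected on every array: 5 of 5 microglial and blood, 4 of 4 neuronal and 5 of 5 mural and fibroblast miRNAs. Their summed intensities were 161 to 453, 275 to 388 and 174 to 403 units over the 6 arrays, in the same order. Muscle and liver miRNAs served as negative controls, and 3 to 4 of 4 were detected per array. They summed to 65 to 115 units in DIV0 and 60 to 71 in DIV3. Detection alone thus does not show that a cell type was present. Both endothelial markers were undetected on the DIV0 array of replicate 2 and summed to 7 to 28 units on the others. In these bulk samples fewer cells of a type and less of a miRNA per cell cannot be told apart.

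All 11 members were tested, and 10 were detected on all 6 arrays. The exception was miR-100-3p, the 3p arm of the miR-100 hairpin, which exceeded the blank spots on 1 of 3 DIV0 arrays and on 3 of 3 DIV3 arrays. Levels are given below as the log2 of the intensity after background correction with 50 units added and quantile normalization, and, where stated, as the intensity units of the deposited table, in which each array has a median of 25. The added units understate the change of dim probes. Different probes bind their targets with different strength, so no probe's level is set against that of another.

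None of the 11 members passed an adjusted p of 0.05 between DIV3 and DIV0 in limma, and 0 of 11 had an unadjusted p under 0.05. Over all 695 miRNAs tested 14 passed, 2.01%, and 14.7% had an unadjusted p under 0.05, so 0 of 11 does not set the members apart from the background. Their log2 changes ran from -0.17 to 0.20 with a median of 0.084, against a median of -0.0067 over all tested miRNAs. The standard errors were 0.055 to 0.23 and the adjusted p-values 0.37 to 0.99. In all, 9 members had a change above 0 and 2 below, where 46.6% of all tested miRNAs lay above 0. That count rests on 1 array: without the DIV0 array of replicate 2, 4 of the 11 lay above 0 and 4 above the median of all tested miRNAs. Without both arrays of replicate 2, 6 lay above 0.

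**Figure D1:**
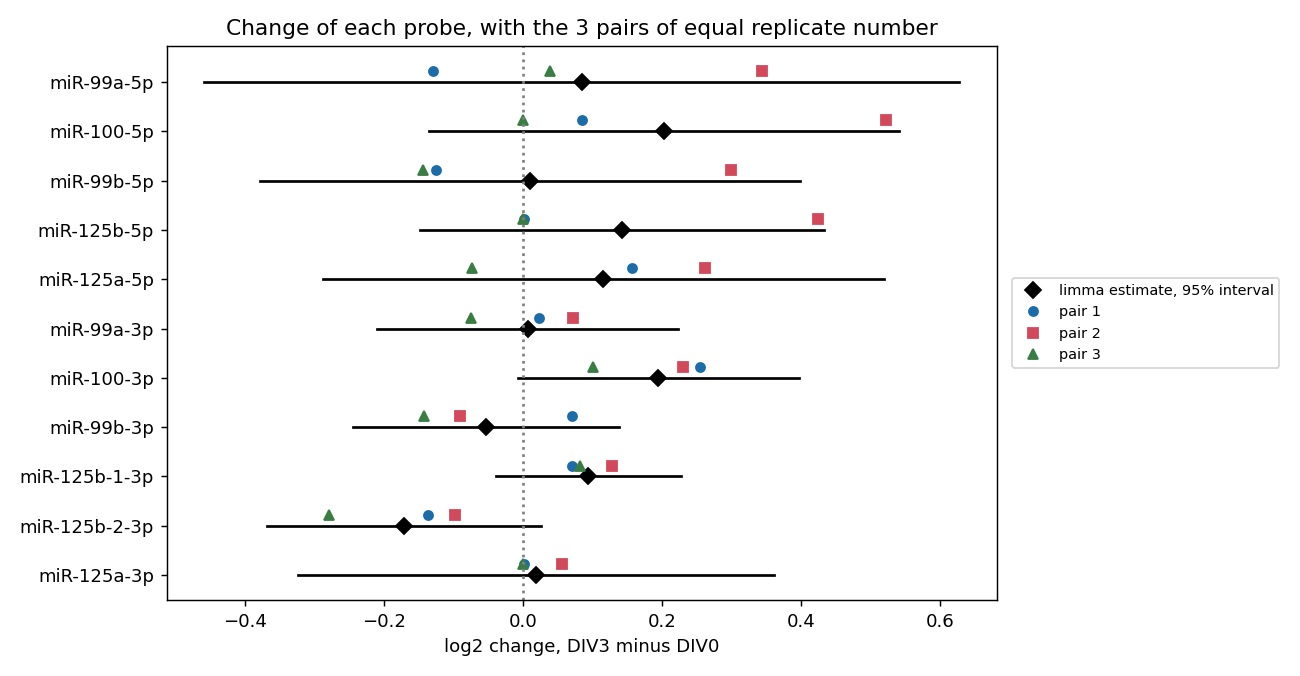
Log2 change of each of the 11 probes, DIV3 minus DIV0, on the normalized scale (x axis), with the limma estimate and its 95% interval as a diamond and line and the 3 pairs of equal replicate number as coloured points. Every interval includes 0, and for each 5p arm the pair numbered 2 lies farthest to the right.

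Among the miR-99/100 5p arms, the level of miR-99a-5p was 11.52, 10.65 and 11.04 in DIV0 (replicates 1, 2 and 3, here and below) and 11.39, 10.99 and 11.08 in DIV3. The groups overlapped, with the highest and the lowest level both in DIV0, and the change was 0.084 ± 0.23 (SE, n = 3 per group, limma adjusted p = 0.91), with a 95% interval of -0.46 to 0.63. Its relative miR-100-5p stood at 11.13, 10.60 and 10.99 in DIV0 and 11.21, 11.13 and 10.99 in DIV3. This was the member with the highest estimate, 0.20 ± 0.14 (adjusted p = 0.63, interval -0.14 to 0.54), a fold of 1.15, and again the DIV0 array of replicate 2 lay apart from the rest. The remaining one, miR-99b-5p, gave 9.60, 9.05 and 9.65 in DIV0 and 9.48, 9.35 and 9.51 in DIV3. Its DIV3 values lay inside the range of DIV0, for a change of 0.0099 ± 0.16 (adjusted p = 0.99, interval -0.38 to 0.40).

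Among the miR-125 5p arms, miR-125a-5p had levels of 10.07, 9.65 and 10.26 in DIV0 and 10.23, 9.91 and 10.18 in DIV3, a change of 0.11 ± 0.17 (adjusted p = 0.83, interval -0.29 to 0.52). The 2 groups overlapped over most of their range. For miR-125b-5p quantile normalization could record little, because the probe ranked 3 by brightness on 5 of 6 arrays and 5 on the DIV0 array of replicate 2, and an equal rank receives an equal level. It thus read 12.39, 11.96 and 12.39 in DIV0 and 12.39 on all 3 DIV3 arrays, a change of 0.14 ± 0.12 (adjusted p = 0.69, interval -0.15 to 0.43).

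The deposited values, which are not tied to ranks, therefore show more of miR-125b-5p. They were 4043, 2757 and 3679 units in DIV0 and 5265, 4331 and 4637 in DIV3, with means of 3493 ± 663 and 4744 ± 476 (SD, n = 3). The lowest DIV3 array lay above the highest DIV0 array, and within the pairs numbered 1, 2 and 3 the log2 ratio of DIV3 over DIV0 was 0.38, 0.65 and 0.33. Of the 538 probes with a deposited value on all arrays, 9.48% were separated this way with DIV3 higher, and of the 10 such members miR-125b-5p was the only one. In limma on log2 of these values plus 16 its change was 0.45 ± 0.16 with an interval of 0.049 to 0.86, against a median of 0.035 over all tested miRNAs. Its unadjusted p was 0.034 and its adjusted p 0.47, so the difference was not past the threshold on this scale either. It had also been singled out after its values were seen. Other bright probes read higher in DIV3 on this scale too. The summed deposited intensity of 8 let-7 family miRNAs was 16586, 12004 and 12748 units in DIV0 and 19205, 15221 and 13860 in DIV3. How much of the difference of miR-125b-5p is shared with such probes was not tested.

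**Figure D2:**
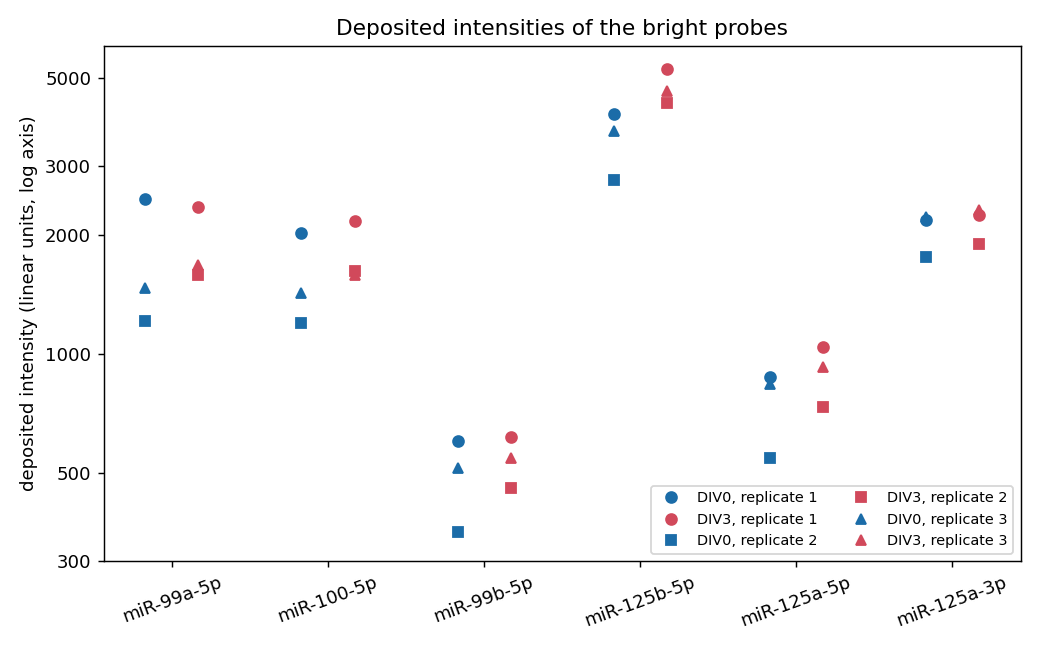
Deposited intensities (linear units on a log axis) of the 5p arms and of miR-125a-3p, blue for DIV0 and red for DIV3, with 1 symbol per replicate number. The 3 DIV3 points of miR-125b-5p, 4331 to 5265 units, lie above its 3 DIV0 points, 2757 to 4043 units, while the groups of the other probes overlap; heights are not to be compared between probes.

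The other 5p arms overlapped on the deposited scale. Their DIV0 and DIV3 means were 1719 ± 664 and 1874 ± 419 units for miR-99a-5p, 1551 ± 427 and 1794 ± 324 for miR-100-5p, 491 ± 126 and 542 ± 79.1 for miR-99b-5p and 754 ± 182 and 904 ± 157 for miR-125a-5p (SD, n = 3). In each of these the difference between means was smaller than the SD of the DIV0 arrays.

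The 5 arms of the 5p side followed each other across arrays. All 5 had their lowest level on the DIV0 array of replicate 2, as did 8 of the 11 members, where 22.2% of all tested miRNAs did. This was not particular to the members. Of the let-7 family, let-7a-5p, let-7b-5p, let-7c-5p and miR-98-5p were also lowest there, while let-7d-5p, let-7e-5p, let-7f-5p and let-7i-5p were not. The related miR-351-5p, miR-10a-5p and miR-10b-5p were lowest on it too. Over the 6 arrays the Pearson correlations between the 5p arms of the members were 0.67 to 0.92, given as a description of points that share arrays and hybridizations. Those with miR-125b-5p, which include the highest (0.92 with miR-100-5p), rest on the DIV0 array of replicate 2, since its rank fixed the level of miR-125b-5p on the others. The next highest was that of miR-99b-5p with miR-125a-5p, at 0.91. In the pair numbered 2 the 5p levels were 0.34 (miR-99a-5p), 0.52 (miR-100-5p), 0.30 (miR-99b-5p), 0.42 (miR-125b-5p) and 0.26 (miR-125a-5p) higher in DIV3 on the log2 scale. In the pairs numbered 1 and 3 the same differences lay between -0.14 and 0.16. Without the DIV0 array of replicate 2 the changes became -0.13 for miR-99a-5p, 0.041 for miR-100-5p, -0.17 for miR-99b-5p, 0.00025 for miR-125b-5p and -0.058 for miR-125a-5p, and the median of the members moved to -0.055 relative to that of all tested miRNAs.

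That array also had the highest summed level of microglial and blood markers, 453 units against 161 to 339 on the others. The muscle and liver miRNAs used as negative controls were highest there too, at 115 units against 60 to 71 on the others. Its summed oligodendrocyte markers, 189 units, were the lowest of the 6 arrays. The part of these differences in the levels of the members was not tested. Slides 1 and 2 held the pairs numbered 1 and 2, so these pair values are also the values within each slide.

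**Figure D3:**
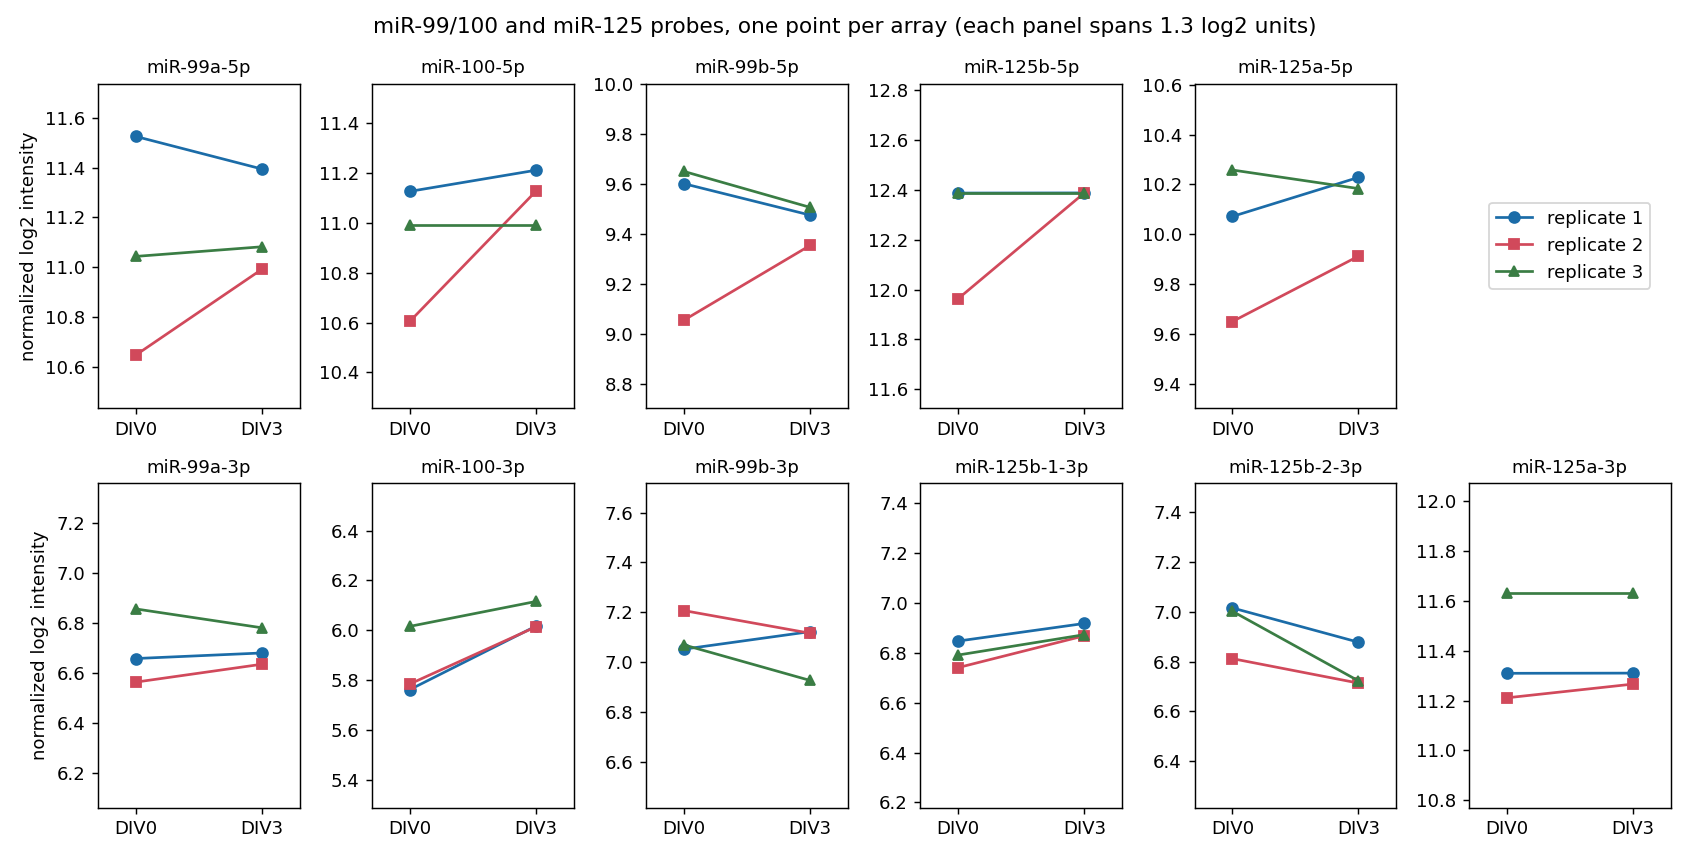
Normalized log2 intensity of each of the 11 probes on each array, with lines joining arrays of equal replicate number and the same span of 1.3 log2 units in every panel. The DIV0 array of replicate 2 is the lowest point of all 5 panels in the upper row, and the 3 lines slope down for miR-125b-2-3p and up for miR-125b-1-3p and miR-100-3p.

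Over the 6 arrays the levels of the 3p arms ranged over 0.18 to 0.42, those of the 5p arms over 0.42 to 0.88. The member once described as a brake on maturation, miR-125a-3p, had nearly the same level in both conditions. It stood at 11.31, 11.21 and 11.63 in DIV0 and 11.31, 11.27 and 11.63 in DIV3, so that arrays of equal number differed by at most 0.055, and its change was 0.019 ± 0.14 (adjusted p = 0.99, interval -0.32 to 0.36). Its rank was the same on both arrays of replicates 1 and 3, which sets those differences close to 0 by construction. The deposited means were 2058 ± 260 and 2157 ± 223 units (SD, n = 3).

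The dim arms of the miR-99/100 hairpins did not pass either. For miR-99a-3p the levels were 6.66, 6.56 and 6.86 in DIV0 and 6.68, 6.63 and 6.78 in DIV3, a change of 0.0061 ± 0.090 (adjusted p = 0.99). For miR-99b-3p they were 7.05, 7.21 and 7.07 against 7.12, 7.12 and 6.93, a change of -0.054 ± 0.080 (adjusted p = 0.83). Both pairs of groups overlapped. The miR-100-3p probe read 5.76, 5.78 and 6.02 in DIV0 and 6.02, 6.01 and 6.12 in DIV3, with DIV3 higher by 0.25, 0.23 and 0.10 in the pairs numbered 1, 2 and 3. Its change of 0.19 ± 0.084 (interval -0.0076 to 0.40) had the smallest p of the members, 0.057 before and 0.37 after adjustment. The first 2 DIV0 readings did not reach the detection cutoff, the blank mean plus 2 SD, and bound the level only from above.

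The estimates for the 3p arms of the miR-125b hairpins lay on opposite sides of 0. The arm of the cluster with miR-100, miR-125b-1-3p, had levels of 6.85, 6.74 and 6.79 in DIV0 and 6.92, 6.87 and 6.87 in DIV3. It was the only member whose groups did not overlap on this scale, where 18.8% of all tested miRNAs were separated, 10.1% with DIV3 higher and 8.78% with DIV3 lower, and its change was 0.093 ± 0.055 (adjusted p = 0.56, interval -0.040 to 0.23). The arm of the cluster with miR-99a, miR-125b-2-3p, stood at 7.01, 6.81 and 7.0 in DIV0 and 6.88, 6.71 and 6.72 in DIV3. It was lower in 3 of 3 pairs, by a change of -0.17 ± 0.082 (adjusted p = 0.44, interval -0.37 to 0.026).

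With the replicate number as a block in limma, 0 of 11 members passed, as against 3.74% of all tested miRNAs. In that fit 2 members had an unadjusted p under 0.05, 18.2% of the members beside 18.8% of all tested miRNAs. They were miR-100-3p, higher in DIV3 (limma adjusted p = 0.21), and miR-125b-2-3p, lower in DIV3 (limma adjusted p = 0.26). By direction, 1.73% of all tested miRNAs passed as higher and 2.01% as lower in that fit. Since miR-100-3p entered the test only through its DIV3 arrays, its p is not read as support for a difference.

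Whether members of one cluster, one family or one hairpin changed unequally was asked of the log2 ratio of 2 probes within each array. The 12 ratios comprised 3 between cluster partners, 3 between family members and 6 between the arms of a hairpin, each compared between DIV3 and DIV0 by an exact permutation test (two-sided, where 3 against 3 arrays cannot go below 0.1). Every adjusted exact p was 1. In the 5 ratios over miR-125b-5p, the level of that probe was set by its rank on 5 of 6 arrays, so they cannot show an unequal change of miR-125b-5p. Between cluster partners, the ratio of miR-99a-5p over miR-125b-5p differed by -0.057 (exact p = 0.7), that of miR-100-5p over miR-125b-5p by 0.061 (exact p = 0.5) and that of miR-99b-5p over miR-125a-5p by -0.10 (exact p = 0.3). Only the last pair of probes reads a single cluster on both sides, and its ratio was -0.47, -0.60 and -0.61 in DIV0 and -0.75, -0.56 and -0.68 in DIV3, which overlap. Without the pair numbered 1 the difference was -0.0095, and without the pair numbered 2 it was -0.18. From the deposited values, which are not tied to ranks, the ratios of miR-99a-5p and miR-100-5p over miR-125b-5p differed by -0.29 (exact p = 0.3) and -0.23 (exact p = 0.2).

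Between family members the changes were 0.12 for miR-100-5p over miR-99a-5p (exact p = 0.6), -0.074 for miR-99b-5p over miR-99a-5p (exact p = 0.8) and -0.027 for miR-125a-5p over miR-125b-5p (exact p = 0.8). These log2 changes were smaller than the SD of the DIV0 arrays, which was 0.20, 0.27 and 0.11 in the same order.

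Between arms, the 3p over 5p ratio differed by -0.078 for miR-99a (exact p = 0.7), -0.064 for miR-99b (exact p = 0.9), -0.096 for miR-125a (exact p = 0.6) and -0.048 for miR-125b-1-3p over miR-125b-5p (exact p = 1). For miR-100 the ratio is not read, since 2 of the 3 DIV0 levels of miR-100-3p are upper bounds. The remaining ratio was that of miR-125b-2-3p over miR-125b-5p. It was -5.37, -5.15 and -5.39 in DIV0 and -5.51, -5.67 and -5.67 in DIV3, 0.31 lower in DIV3 (exact p = 0.1, the smallest that 3 against 3 arrays allow, adjusted 1). The groups did not overlap in this 1 ratio of 12. In the pairs numbered 1 and 3 it differed by -0.14 and -0.28, as did miR-125b-2-3p alone, because the level of miR-125b-5p was set by its rank. On this scale the ratio is thus no separate sign of a shift between arms. Without the pair numbered 2 the difference was -0.19, with cyclic loess it was -0.25 and the groups overlapped, and from the deposited values it was -0.60. In deposited units the same quotient was 0.0156, 0.0160 and 0.0128 in DIV0 and 0.0110, 0.00924 and 0.00798 in DIV3.

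A further ratio, chosen after the values were seen and so given without a test, sets the 3p arms of the miR-125b hairpins against each other. The log2 ratio of miR-125b-1-3p over miR-125b-2-3p was -0.17, -0.071 and -0.21 in DIV0 and 0.040, 0.15 and 0.15 in DIV3. The groups did not overlap, the change was 0.26, and the 3 pairs gave 0.21, 0.23 and 0.36. In deposited units the quotient of the 2 probes was 0.825, 0.909 and 0.766 in DIV0 and 1.05, 1.20 and 1.24 in DIV3, with means of 0.833 ± 0.0719 and 1.16 ± 0.10 (SD, n = 3). The separation held in 15 of 16 other settings, all on the same samples, and the change turned to -0.21 with the local background. The replicate block among them does not alter the ratio. Leaving out arrays of groups that are already separated can hardly make them overlap. The count is therefore not a measure of robustness. Both probes were dim, with deposited values of 36 to 63 units, and neither passed alone.

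**Figure D4:**
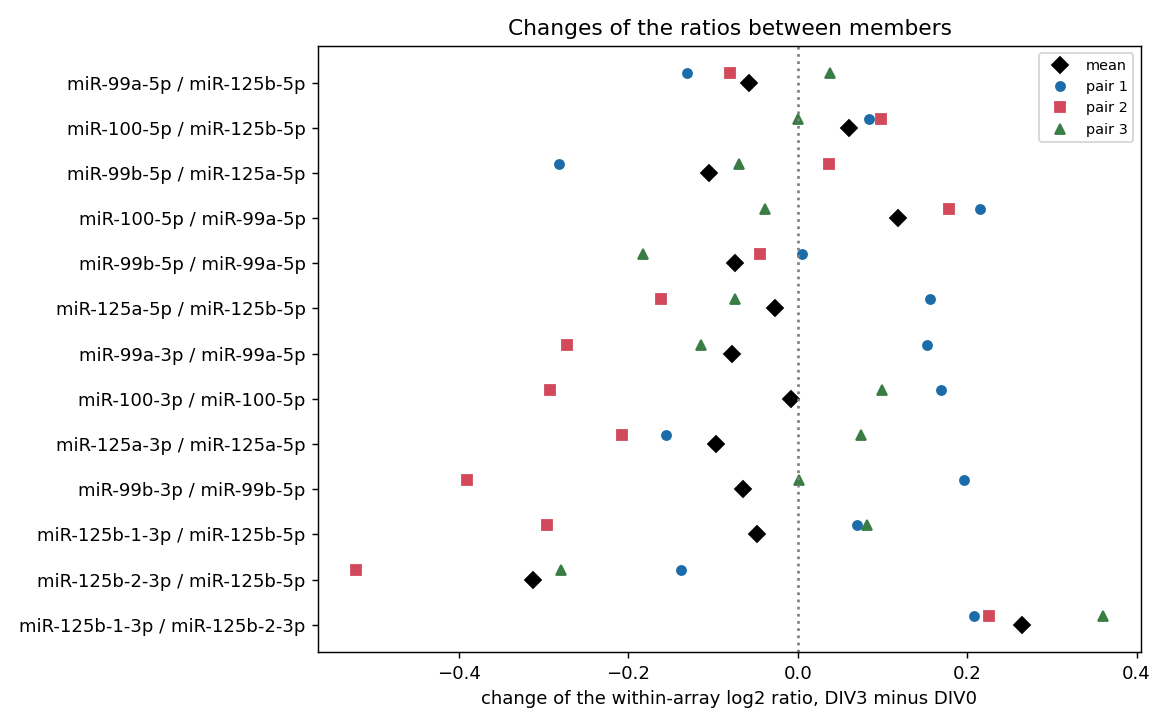
Change of the within-array log2 ratio of 2 members, DIV3 minus DIV0 (x axis), as the mean of the groups (diamond) and in the 3 pairs of equal replicate number (coloured points). Of the 12 planned ratios, that of miR-125b-2-3p over miR-125b-5p has all 3 pairs on one side, at a mean of -0.31; the bottom ratio, miR-125b-1-3p over miR-125b-2-3p, was added after its values were seen and lies at 0.26.

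Read by cluster, the miR-100 cluster had estimates of 0.20 for miR-100-5p and 0.093 for miR-125b-1-3p, while miR-100-3p had only upper bounds on 2 DIV0 arrays. The 3 probes specific to the miR-99a cluster had changes of -0.17 to 0.084, with 2 above 0 and 1 below. The 4 of the miR-99b cluster lay between -0.054 and 0.11, with 3 above 0. None of these 10 passed, and a difference between the clusters as such was not tested.

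The let-7 genes inside the clusters were read by let-7a-5p, let-7c-5p and let-7e-5p, of which the first 2 are also made from other hairpins. Their log2 changes were 0.027 ± 0.084, 0.12 ± 0.11 and 0.031 ± 0.057 (SE, n = 3 per group, limma adjusted p = 0.93, 0.74 and 0.87). On the only let-7 5p arm made in a single cluster, let-7e-5p, the levels were 10.15, 10.18 and 10.21 in DIV0 and 10.26, 10.23 and 10.15 in DIV3, and the groups overlapped. The matching 3p arms let-7c-1-3p, let-7a-2-3p and let-7e-3p differed by 0.0053, -0.092 and 0.062, and none passed. Of the 8 let-7 family miRNAs listed, 0 passed in limma, beside 2.01% of all tested miRNAs. An unadjusted p under 0.05 was found for 1 of the 8, let-7f-5p (0.19 ± 0.050, adjusted p = 0.15), beside 14.7% of all tested miRNAs. Its rank was 9 on all 3 DIV0 arrays, which set those levels nearly equal by construction, so its SE does not reflect the spread of its intensities. Its deposited values were 2939, 2300 and 2378 units in DIV0 and 3405, 2951 and 2880 in DIV3, which overlap. The list leaves out let-7g-5p, which differed by 0.016 ± 0.086 (limma adjusted p = 0.98).

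The miRNA that shares the miR-125 seed, miR-351-5p, had levels of 8.17, 7.55 and 7.75 in DIV0 and 8.20, 7.95 and 7.75 in DIV3, a change of 0.14 ± 0.18 (adjusted p = 0.79). It too was lowest on the DIV0 array of replicate 2. The miR-10 miRNAs, relatives of miR-99/100 by sequence, were dim in this culture, at 10 to 28 deposited units for miR-10a-5p and 10 to 20 for miR-10b-5p, and differed by 0.13 ± 0.10 and 0.0093 ± 0.078 (adjusted p = 0.68 and 0.99).

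Outside the families, the miRNAs whose levels followed a member most closely over the 6 arrays were picked by Pearson correlation, as a description of points that share arrays. They were miR-134-5p (0.94) and miR-450a-5p (0.93) for miR-99a-5p, miR-92b-3p (0.96) and miR-181d-5p (0.96) for miR-100-5p, and miR-3559-5p (0.98) and let-7c-1-3p (0.94) for miR-99b-5p. For miR-125a-5p they were miR-10a-5p (0.97) and miR-3559-5p (0.93). For miR-125b-5p they were miR-194-5p (1.00) and miR-344a-3p (0.96), where the likeness rests on the 1 array on which the rank of miR-125b-5p was not 3. None of these miRNAs passed between DIV3 and DIV0, with adjusted p-values of 0.48 to 1.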

How the data were processed

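Total RNA was labelled with Cy5 and hybridised to 6 single-colour arrays, 3 per condition. The deposited scanner files hold median spot intensities and local background intensities of 3200 spots, joined over 3 gains by least-squares lines and not background-corrected, per the file headers. The deposited table holds linear intensity values, and no source used here says how the authors made them. Each column followed a line in that array's spot intensity to within 0.522 units and had a median of 25, missing where the spot was not detected. No centring was found.

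The spots were corrected by normexp with the mean and SD of the blank spots (trimmed by 5% at each end, offset 50), log2-transformed and quantile-normalized across 761 miRNA probes (limma 3.58.1, R 4.3.3). A probe was detected above the blank mean plus 2 SD, and the 695 detected on at least 3 arrays were tested with lmFit and eBayes, two-sided, with Benjamini-Hochberg adjustment over all 695 and a threshold of 0.05. Of these steps only the limma fit was tested on simulated data. The number of arrays limits the precision.

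The local background followed the spot (correlation of logs 0.964 to 0.986 over all spots) and served only as an alternative. The only miRNA spot flagged by the scanner was left out. Arrays of equal replicate number in the titles deviated together from their group means (correlations 0.37, 0.53 and 0.46 across miRNAs), so equal numbers were read as pairs. Alternatives changed the background, offset, normalization, filter, block and arrays used.

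The members and lists were chosen with earlier results of these data known. The text names every member, the let-7 miRNAs of the clusters, the let-7 family, miR-351-5p, miR-10a-5p, miR-10b-5p and, for each 5p member, the 2 miRNAs most correlated with it.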

Additional observations from a re-analysis of the deposited data

How the results depend on the processing

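Under all 21 alternatives 0 members passed, with adjusted p-values of 0.17 to 1. The signs of changes this small were not fixed: 27 of 230 values of single members and 37 of 192 values of the ratios turned. The cause was not tested unless stated. With the local background the largest move was that of miR-125b-5p, 3.74 against 0.14 (limma adjusted p = 0.58). The other changes were 0.70 (miR-125a-5p), 0.45 (miR-125a-3p), 0.23 (miR-99a-5p), 0.25 (miR-99b-5p), 0.12 (miR-100-3p), -1.02 (miR-100-5p), -0.052 (miR-99a-3p), 0.10 (miR-99b-3p), -0.13 (miR-125b-1-3p) and 0.080 (miR-125b-2-3p). The ratios over miR-125b-5p were then -4.76 (miR-100-5p), -3.51 (miR-99a-5p), -3.04 (miR-125a-5p), -3.86 (miR-125b-1-3p) and -3.66 (miR-125b-2-3p), and others were -0.45 (miR-99b-5p over miR-125a-5p), -1.25 (miR-100-5p over miR-99a-5p), 0.020 (miR-99b-5p over miR-99a-5p), 1.14 (miR-100-3p over miR-100-5p) and -0.21 (miR-125b-1-3p over miR-125b-2-3p). With offset 16 miR-100-3p over miR-100-5p was 0.23.

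With median scaling the median of the members lay 0.64 above that of all miRNAs, against 0.091, and all 11 lay above it; miR-99b-3p was 0.23, miR-125b-2-3p 0.029 and miR-100-5p over miR-125b-5p -0.25. miR-125b-2-3p over miR-125b-5p was then -1.03 and miR-100-3p over miR-100-5p -0.69. In the deposited values that median was 0.13, miR-99b-3p was 0.087 and miR-100-5p over miR-125b-5p -0.23. With cyclic loess miR-99a-5p was -0.074, miR-100-5p -0.0056 and miR-125a-3p -0.19. The ratios were then -0.11 (miR-100-5p over miR-125b-5p), 0.12 (miR-99b-5p over miR-99a-5p), 0.020 (miR-125a-5p over miR-125b-5p), 0.13 (miR-99a-3p over miR-99a-5p) and 0.25 (miR-100-3p over miR-100-5p). Of the 12 ratios 4 were separated with the local background, 3 with median scaling and 0 with cyclic loess, against 1.

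The count of all miRNAs past the threshold, 14, was 1 with the local background, 6 with offset 16, 4 with median scaling, 0 from the deposited values (65 at an unadjusted limma p under 0.05), 26 with the replicate block, 1 with the slide as a fixed block and 28 with it as a random block. The replicate block changed no call of a member. With a trended eBayes 1 listed miRNA passed, let-7f-5p (limma adjusted p = 0.019), whose equal ranks in DIV0 held its spread near 0.

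Leaving out 1 array or 1 pair gave ranges of 0 to 13 for that count (0 without the DIV3 array of replicate 1, 2 or 3, the DIV0 array of replicate 3, or the pairs numbered 2 or 3, with 55 to 79 at an unadjusted limma p under 0.05, 7 without the DIV0 array of replicate 2 and 5 without the pair numbered 1), -0.055 to 0.14 for the median of the members and 1 to 3 separated ratios. The changes ran from -0.13 to 0.30 (miR-99a-5p), -0.17 to 0.13 (miR-99b-5p), -0.058 to 0.25 (miR-125a-5p), -0.057 to 0.10 (miR-99a-3p), -0.11 to 0.011 (miR-99b-3p) and -0.10 to 0.14 (miR-125a-3p). The ratios ran from -0.18 to 0.065 (miR-99a-5p over miR-125b-5p), -0.0038 to 0.13 (miR-100-5p over miR-125b-5p), -0.0062 to 0.22 (miR-100-5p over miR-99a-5p), -0.19 to 0.061 (miR-99b-5p over miR-99a-5p), -0.15 to 0.073 (miR-125a-5p over miR-125b-5p), -0.31 to 0.075 (miR-99a-3p over miR-99a-5p), -0.15 to 0.13 (miR-100-3p over miR-100-5p), -0.19 to 0.016 (miR-125a-3p over miR-125a-5p), -0.21 to 0.16 (miR-99b-3p over miR-99b-5p), -0.15 to 0.071 (miR-125b-1-3p over miR-125b-5p), -0.44 to -0.19 (miR-125b-2-3p over miR-125b-5p) and -0.18 to -0.0095 (miR-99b-5p over miR-125a-5p). Signal over background limits the dim 3p arms, above all miR-100-3p.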
